A study of Mus musculus with 2 samples.

Results

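The 10 genes described here encode the building blocks of microtubules and a protein that holds those building blocks in solution. They are the α-tubulin genes Tuba1a, Tuba1b, Tuba1c and Tuba4a, the β-tubulin genes Tubb2a, Tubb2b, Tubb4b, Tubb5 and Tubb6, and Stmn1, which encodes stathmin. They were chosen by name, and all 10 are among the 27998 genes of the deposited tables. The data are 2 single-cell RNA-Seq libraries of hepatocytes from C57BL/6 mice aged 10 to 12 weeks and kept on a normal diet. The undamaged library was made at 0 h, and the PHx48h library was made 48 h after partial hepatectomy, the surgical removal of part of the liver. Each library came from part of the hepatocyte preparation of 1 male mouse, isolated by 2-step collagenase perfusion, so there was 1 library per group. No difference between the time points therefore has a replicate check, and every interval given below covers counting error only.

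Microtubules are hollow filaments of α- and β-tubulin dimers that carry vesicles and organelles in resting cells and are rebuilt into the spindle when a cell divides. Cells hold several α- and β-tubulin genes whose products differ mostly in their acidic C-terminal tails, where enzymes add or remove glutamate and, on many α-tubulins, a terminal tyrosine. Free tubulin also regulates its own messages: a ribosome-bound factor, TTC5, recognises the first residues of a nascent tubulin chain and marks the mRNA for decay. Stathmin binds free tubulin dimers and promotes the shrinking of microtubules, and it is switched off by phosphorylation when cells enter mitosis. Hepatocytes of the resting adult liver are mostly quiescent, and loss of liver tissue drives them to divide.

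The ends of the coding sequences are shown because they hold the parts in which the isotypes differ, and because near-identical members can share sequencing reads. The last 60 coding bases before the stop codon of 5 members are given 5′ to 3′ from the GENCODE M21 transcripts of GRCm38, and capitals mark the glutamate codons GAA and GAG.
Tuba4a: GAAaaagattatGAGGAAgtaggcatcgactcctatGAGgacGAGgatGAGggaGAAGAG
Tubb2a: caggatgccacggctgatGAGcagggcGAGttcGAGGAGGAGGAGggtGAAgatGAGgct
Tubb2b: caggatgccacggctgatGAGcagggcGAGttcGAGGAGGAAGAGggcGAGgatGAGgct
Tubb4b: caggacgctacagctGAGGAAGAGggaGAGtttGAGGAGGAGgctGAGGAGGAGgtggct
Tubb5: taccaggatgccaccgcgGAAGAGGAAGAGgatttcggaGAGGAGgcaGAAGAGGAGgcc

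The 20 codons shown hold 8 glutamate codons in Tuba4a, 8 in Tubb2a and in Tubb2b, 10 in Tubb4b and 9 in Tubb5. Tuba4a ends in GAG and so encodes no terminal tyrosine. The first 12 coding bases, which encode the residues read by the autoregulatory factor, are ATGCGCGAGTGC in Tuba4a. In the β-tubulin genes they are ATGCGCGAGATC in Tubb2a, ATGCGAGAGATC in Tubb2b, ATGAGGGAGATC in Tubb4b and ATGAGGGAAATC in Tubb5. Over the whole coding sequence Tuba1a and Tuba1b were 98.3% identical, Tuba1b and Tuba1c 97.9%, and Tubb2a and Tubb2b 96.5%. Counts within these groups are therefore uncertain where reads fell in shared sequence. The untranslated 3′ ends, where reads of these 3′ libraries can also fall, were not compared. Tuba4a was 84.7% to 85.3% identical to the other α-tubulin genes.

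The genes lie at several places in the genome. On chromosome 15 of GRCm38, Tuba1b (98931425 to 98934565, minus strand), Tuba1a (98949837 to 98953703, minus strand) and Tuba1c (99029891 to 99038110, plus strand) are neighbours. Tuba4a is on chromosome 1 (75214228 to 75219865, minus strand). Tubb2a (34074274 to 34078007) and Tubb2b (34126748 to 34130466) lie on the minus strand of chromosome 13. Tubb4b is on chromosome 2 (25222160 to 25224702, minus strand), Tubb5 on chromosome 17 (35833921 to 35838306, minus strand) and Stmn1 on chromosome 4 (134468320 to 134473843, plus strand).

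The 250 bases before the RefSeq start of each gene were taken (GRCm38.p6), and 7 of the 10 genes were matched there. RefSeq starts can differ from the GENCODE positions given above. They are shown for Tubb4b, whose level at PHx48h was the highest of the 10 in barcodes above 30% mitochondrial UMIs and in those below 2%, and for Tubb2a, 1 of the 2 members whose levels in the non-hepatocyte barcodes were lower at PHx48h. Capitals mark each match, on either strand, to CCAAT, the letters bound by NF-Y, and to TTTGAA or TTCGAA, forms of the cell cycle gene homology region.
Tubb4b, chr2:25224703-25224952, minus strand: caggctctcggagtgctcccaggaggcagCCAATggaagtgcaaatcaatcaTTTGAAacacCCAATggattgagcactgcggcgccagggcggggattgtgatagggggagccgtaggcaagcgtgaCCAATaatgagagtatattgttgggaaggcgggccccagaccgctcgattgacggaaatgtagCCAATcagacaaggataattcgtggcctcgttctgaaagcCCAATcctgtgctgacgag
Tubb2a, chr13:34078009-34078258, minus strand: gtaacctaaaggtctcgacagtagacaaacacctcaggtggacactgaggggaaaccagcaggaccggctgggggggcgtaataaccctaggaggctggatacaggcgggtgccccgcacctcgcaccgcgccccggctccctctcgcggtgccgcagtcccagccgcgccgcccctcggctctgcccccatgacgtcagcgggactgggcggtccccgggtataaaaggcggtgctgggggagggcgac

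CCAAT occurred 5 times in the Tubb4b window, 2 times in that of Tubb5, and 1 time each in those of Tuba1a and Tuba1c. It was not in the windows of Tuba1b, Tuba4a and Tubb2a. By the GENCODE positions, however, the Tuba4a window (75219295 to 75219544) lay wholly inside the gene. Those of Tuba1a, Tuba1b and Tubb5 lay partly inside. For these genes, bases before the GENCODE start were not or not fully searched. Of 27025 RefSeq promoters of this length, 34.5% held CCAAT on at least 1 strand. TTTGAA or TTCGAA occurred 1 time in Tubb4b and in no other matched member, against 17.4% of promoters. The E2F-like letters TTTGGCGC, TTTCCCGC and TTTCGCGC were in none of the 7 windows, against 1.59% of promoters. The motif forms searched do not overlap each other, and a match describes the letters and not a bound site.

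Levels are the summed UMIs of a gene in a set of barcodes per 1000000 non-mitochondrial UMIs of that set (CPM). Because the 3′ chemistry gives about 1 count per captured molecule whatever the length of the message, levels of different genes can be set side by side on this scale. Intervals are exact 95% Poisson intervals for levels and exact conditional binomial intervals for ratios. The undamaged library held 59202 barcodes and the PHx48h library 1586, with minimum depths of 1183 and 4578 UMIs per barcode, so the libraries differed strongly in barcode number and depth. Whether each barcode of either library held a cell or only free RNA was not tested. The undamaged barcodes had a median of 1436 UMIs, and the study kept far fewer cells of that library after its own filtering. The 3 disjoint sets below were compared. Barcodes above 30% mitochondrial UMIs numbered 3870 in the undamaged library and 765 at PHx48h, with median depths of 2371.5 and 10627 UMIs. Barcodes below 2% numbered 52258 and 507, with median depths of 1421 and 5294 UMIs. Non-hepatocyte barcodes, taken from clusters with at least 3 markers of another cell type, numbered 779 and 114. The sets above 30% and below 2% are called hepatocyte sets here after their RNA, whether it came from cells or was free. Each held 10 of 10 hepatocyte markers, at summed levels of 102700 and 96980 CPM above 30% and 86550 and 60710 CPM below 2%. Summed levels of the 10 macrophage, 10 endothelial and 10 stromal markers there lay between 11.8 and 69.4 CPM, and those of T or NK, B, neutrophil, cholangiocyte and dendritic markers between 0 and 1.18 CPM. The erythroid markers stood at 247.7 CPM below 2% in the undamaged library and between 27.6 and 54.5 CPM in the other hepatocyte sets. In undamaged non-hepatocyte barcodes they stood at 247.6 CPM. In the non-hepatocyte barcodes the hepatocyte markers still reached 61.4% (undamaged) and 43.2% (PHx48h) of their level below 2%, so these barcodes also carried hepatocyte RNA. There too 10 of 10 were detected, so detection alone does not tell a hepatocyte from free hepatocyte RNA. The libraries shared 148 barcode sequences, 9.33% of the PHx48h barcodes. Below 2%, 4068 undamaged and 119 PHx48h barcodes lay in clusters with a marker of another cell type among their 10 leading genes, and without these the ratio of the summed members was 3.18 in place of 3.46. Without the shared barcode sequences that ratio was 4.63 above 30%, 3.48 below 2% and 4.04 in non-hepatocyte barcodes.

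**Figure D1:**
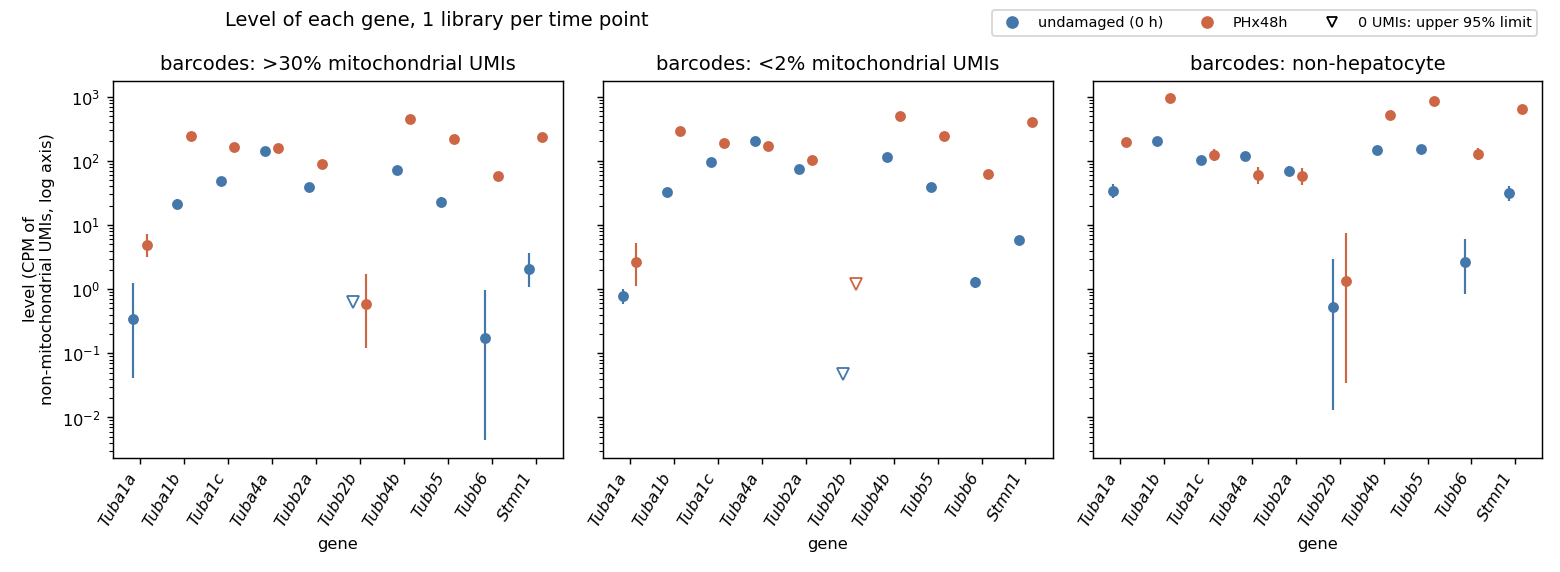
Level in CPM of non-mitochondrial UMIs (log axis) of each gene in the undamaged (blue) and PHx48h (orange) libraries, in barcodes above 30% mitochondrial UMIs, below 2% and in non-hepatocyte barcodes; points are levels, vertical lines exact 95% Poisson intervals, and open triangles the upper limit for a gene with 0 UMIs. Stmn1 lies at 2.08 against 235 CPM above 30%, while the paired Tuba4a points lie close together at 144 and 156.

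Summed over the 10 genes, the level was higher at PHx48h in each of the 3 sets. Above 30% mitochondrial UMIs it was 350.4 CPM (335 to 366) in the undamaged library and 1623 CPM (1588 to 1658) at PHx48h, a ratio of 4.63 (4.41 to 4.87). Below 2% it was 569 (564 to 574) against 1972 CPM (1922 to 2022), a ratio of 3.46 (3.37 to 3.56). In non-hepatocyte barcodes it was 868 (826 to 910.3) against 3512 CPM (3378 to 3649), a ratio of 4.05 (3.81 to 4.31). The typical gene also differed between the libraries above 30%, where the median ratio over all 8533 genes past the filter of 5 CPM was 1.47, against 1.03 below 2% and 1.17 in non-hepatocyte barcodes. Relative to these medians the ratio of the sum was 3.16, 3.36 and 3.46. At least 2-fold higher at PHx48h were 8 of the 10 members above 30%, 7 of them past the filter, where 30.9% of all genes were 2-fold higher. Below 2% there were 6, with 5 past the filter, against 24.2% of all genes, and in non-hepatocyte barcodes 6, all past the filter, against 21.8%. The filter kept 8, 8 and 9 members, leaving out Tuba1a and Tubb2b above 30% and below 2%, and Tubb2b in non-hepatocyte barcodes. Limited to macrophage-like or endothelial-like barcodes, the sum was 3.15-fold (2.74 to 3.63) and 4.01-fold (3.53 to 4.58) higher.

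The sizes of these ratios depended on which undamaged barcodes were used. With undamaged barcodes of at least 4578 UMIs, the minimum of the PHx48h library, 308 were left above 30%, 16 below 2% and 57 in the non-hepatocyte set. The sum was then 6.05-fold higher above 30% (268 against 1623 CPM), 2.56-fold below 2% (771 against 1972 CPM) and 2.99-fold in non-hepatocyte barcodes (1176 against 3512 CPM). At least 2-fold higher were 8, 5 and 6 members, some of them with 3 undamaged UMIs or fewer. The share of all genes at this depth is not given, so these counts have no background here. Above 30% the ratios were 17.4 for Tuba1b, 9.08 for Tubb4b, 11.3 for Tubb5 and 1.37 for Tuba4a, and Stmn1 had 3 undamaged UMIs. In non-hepatocyte barcodes the ratio of Stmn1 was 7.23, that of Tubb6 rested on 2 undamaged UMIs, and those of Tuba1b, Tuba1a and Tubb5 were 2.94, 3.36 and 3.21. The 16 barcodes below 2% held 61 UMIs of the members in all, among them 1 of Stmn1 and 1 of Tubb6.

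Stathmin showed the largest ratios among the members with at least 10 UMIs in both libraries of a hepatocyte set. Above 30% mitochondrial UMIs, Stmn1 stood at 2.08 CPM (1.07 to 3.63, 12 UMIs) in the undamaged library and at 235 CPM (222 to 249, 1200 UMIs) at PHx48h, a ratio of 113 (64.6 to 220). Below 2% it stood at 5.825 CPM (5.30 to 6.39) against 403 CPM (380 to 426), a ratio of 69.1 (62.0 to 77.1). In non-hepatocyte barcodes it stood at 31.4 CPM (23.97 to 40.4) against 637 CPM (581 to 697), a ratio of 20.3 (15.5 to 26.98). In macrophage-like and endothelial-like barcodes alone the ratio was 17.2 (9.76 to 31.4) and 18.8 (10.5 to 37.2). The sets differed more in the undamaged library, where 60 Stmn1 UMIs in 20 non-hepatocyte barcodes gave a level 5.39 times (4.05 to 7.07) that of barcodes below 2%, than at PHx48h, where the same ratio was 1.58 (1.42 to 1.76). Of those 60 UMIs, 26 came from the 54 T- or NK-like barcodes. After thinning each barcode to 1000 non-mitochondrial UMIs, which dropped 1399 shallower undamaged barcodes and 4 at PHx48h, at least 1 Stmn1 UMI was seen in 0.202% of undamaged and 19.3% of PHx48h barcodes above 30%. Without thinning the shares were 0.284% and 59.5%. Below 2% the thinned shares were 0.601% and 32.9%.

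The other stathmin genes, Stmn2, Stmn3 and Stmn4, did not pass the filter in any set. Their summed level was 0 above 30% in both libraries.

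Among the α-tubulin genes, Tuba1b, a broadly expressed isotype, had the largest ratio in the hepatocyte sets among those with at least 10 UMIs in both libraries. It stood at 21.5 CPM above 30% in the undamaged library and 245 CPM at PHx48h, a ratio of 11.4 (9.48 to 13.8). Below 2% it stood at 32.6 against 292 CPM, a ratio of 8.96 (8.29 to 9.67), and in non-hepatocyte barcodes at 206 against 948 CPM, a ratio of 4.605 (4.06 to 5.22). Tuba1c, from the same stretch of chromosome 15, differed less: 48.6 against 163 CPM above 30% (ratio 3.34, 2.92 to 3.84), 95.45 against 187 CPM below 2% (1.96, 1.80 to 2.14) and 105 against 124 CPM in non-hepatocyte barcodes, where the interval of the ratio of 1.19 held 1 (0.918 to 1.53) and the ratio was 0.955 with TMM factors.

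Tuba1a, the α-tubulin best known from developing neurons, was near 0 in the hepatocyte sets. It had 2 UMIs in the undamaged library and 25 at PHx48h above 30%, and stood at 0.768 against 2.62 CPM below 2%. In non-hepatocyte barcodes it stood at 34.0 against 193 CPM, a ratio of 5.68 (4.21 to 7.74). Its level in non-hepatocyte barcodes was 44.3 times (30.7 to 64.0) that below 2% in the undamaged library and 73.8 times (36.4 to 174) at PHx48h. Non-hepatocyte barcodes as a whole had 42.0% and 50.5% of all genes at least 2-fold above the level below 2%. Within them 45 of the 65 undamaged Tuba1a UMIs and 90 of the 143 at PHx48h came from unnamed barcodes (75.1 and 235 CPM), the endothelial-like barcodes stood at 39.0 and 213 CPM, and the macrophage-like ones held 2 and 4 UMIs. Above 30%, 9 of the 25 Tuba1a UMIs at PHx48h came from 11 barcodes in a cluster with 9 endothelial markers, which stayed in that set.

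Tuba4a, the α-tubulin without a terminal tyrosine codon, was the most abundant member in both undamaged hepatocyte sets. It stood at 144 against 156 CPM above 30%, a ratio of 1.08 (0.979 to 1.19) whose interval held 1, and the ratio was 0.903 CPM of all UMIs and 0.733 with TMM factors. Below 2% it was lower at PHx48h, 207 against 171 CPM (0.829, 0.759 to 0.905), and in non-hepatocyte barcodes it stood at 119 against 59.5 CPM (0.5004, 0.354 to 0.694), or at 64.4 against 59.5 CPM (0.924) with undamaged barcodes of at least 4578 UMIs. The summed hepatocyte markers of the non-hepatocyte barcodes were at 0.494 of their undamaged level as well, and the part of hepatocyte RNA in the Tuba4a value was not tested. Relative to the median gene, the Tuba4a ratio was 0.737 above 30%, 0.804 below 2% and 0.428 in non-hepatocyte barcodes. In the barcodes from 2% to 30% mitochondrial UMIs, outside these sets, Tuba4a was lower at PHx48h, 190 against 111 CPM (0.583, 0.508 to 0.668).

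**Figure D2:**
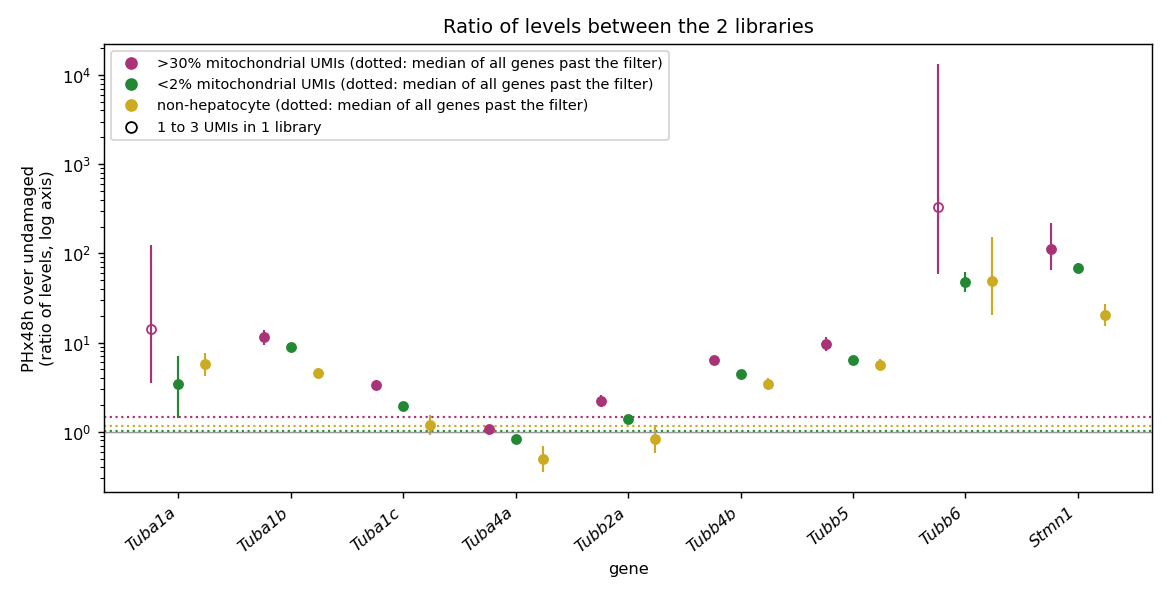
Ratio of the PHx48h to the undamaged level (log axis) of each gene in the 3 sets of barcodes; points are ratios, lines exact 95% intervals for counting error, dotted lines the median ratio of all genes past the filter in each set, and open circles ratios with 1 to 3 UMIs in 1 library; Tubb2b, with 3 UMIs or fewer in each library, is left out. Tuba4a lies at or below 1.08 in the 3 sets, and Stmn1 and Tubb6 lie above 20.

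The sum of the β-tubulin genes differed more than that of the α-tubulin genes in the hepatocyte sets. It was 6.13-fold higher above 30% and 4.02-fold higher below 2%, against 2.65-fold and 1.95-fold for the α-tubulin sum. Single genes did not divide this way. In both sets the ratio of Tuba1b (11.4 and 8.96) lay above those of Tubb2a, Tubb4b and Tubb5 and below that of Tubb6. Tubb4b, a ubiquitous isotype, was the most abundant member at PHx48h in both hepatocyte sets: 71.1 against 453 CPM above 30% (ratio 6.37, 5.74 to 7.10) and 113 against 503 CPM below 2% (4.46, 4.22 to 4.71). In non-hepatocyte barcodes it stood at 148 against 514 CPM (3.47, 2.96 to 4.06). Tubb5, a broadly expressed isotype, stood at 22.8 against 221 CPM above 30% (9.67, 8.07 to 11.7) and 38.6 against 247 CPM below 2% (6.41, 5.91 to 6.95). Its levels in non-hepatocyte barcodes were 151 and 849 CPM (5.61, 4.87 to 6.47).

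Tubb6, a β-tubulin divergent in sequence from the others, was almost absent from undamaged barcodes. Above 30% it had 1 UMI in the undamaged library and 293 at PHx48h, which is 57.4 CPM. The ratio of 332 rests on that 1 UMI and has an interval of 59.1 to 13150. Below 2% it stood at 1.29 against 61.6 CPM, a ratio of 47.6 (37.2 to 61.3), and in non-hepatocyte barcodes at 2.62 against 128 CPM, a ratio of 49.1 (20.3 to 154.5). In endothelial-like barcodes it had 0 UMIs in the undamaged library and 17 at PHx48h, which is at least 8.20-fold higher when the undamaged level is set at 3 UMIs.

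Tubb2a was the β-tubulin with the smallest differences. It stood at 39.6 against 87.8 CPM above 30% (2.215, 1.89 to 2.61), at 75.1 against 103.5 CPM below 2% (1.38, 1.23 to 1.54) and at 70.2 against 58.1 CPM in non-hepatocyte barcodes (0.829, 0.573 to 1.18), the last interval holding 1. Tubb2b, its near-identical neighbour, was at or near 0: it had 3 UMIs above 30% at PHx48h, 1 UMI in each library in non-hepatocyte barcodes and 0 UMIs elsewhere in these sets.

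The make-up of the tubulin messages therefore differed between the libraries, which can be read without any scaling between them. Of the α-tubulin UMIs above 30%, Tuba4a made up 67.2% (64.5 to 69.8) in the undamaged library and 27.4% (25.8 to 29.1) at PHx48h, while Tuba1b made up 10.0% (8.39 to 11.8) and 43.1% (41.3 to 44.9). The shares below 2% were close to these, with Tuba4a at 61.6% and 26.2% and Tuba1b at 9.715% and 44.7%. Tuba1c held 22.7% and 28.6% above 30% and 28.5% and 28.7% below 2%. In non-hepatocyte barcodes Tuba1b already made up 44.4% (41.1 to 47.8) in the undamaged library and 71.5% (68.6 to 74.3) at PHx48h, and Tuba4a 25.7% and 4.49%. Among the β-tubulin UMIs above 30%, Tubb4b made up 53.2% and 55.3%, with overlapping intervals (49.6 to 56.7 and 53.8 to 56.8). The share of Tubb2a was 29.6% against 10.7%, that of Tubb5 17.1% against 26.9% and that of Tubb6 0.129% against 7.001%. Below 2% Tubb2a made up 33.0% and 11.3%, and Tubb6 0.567% and 6.72%.

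**Figure D3:**
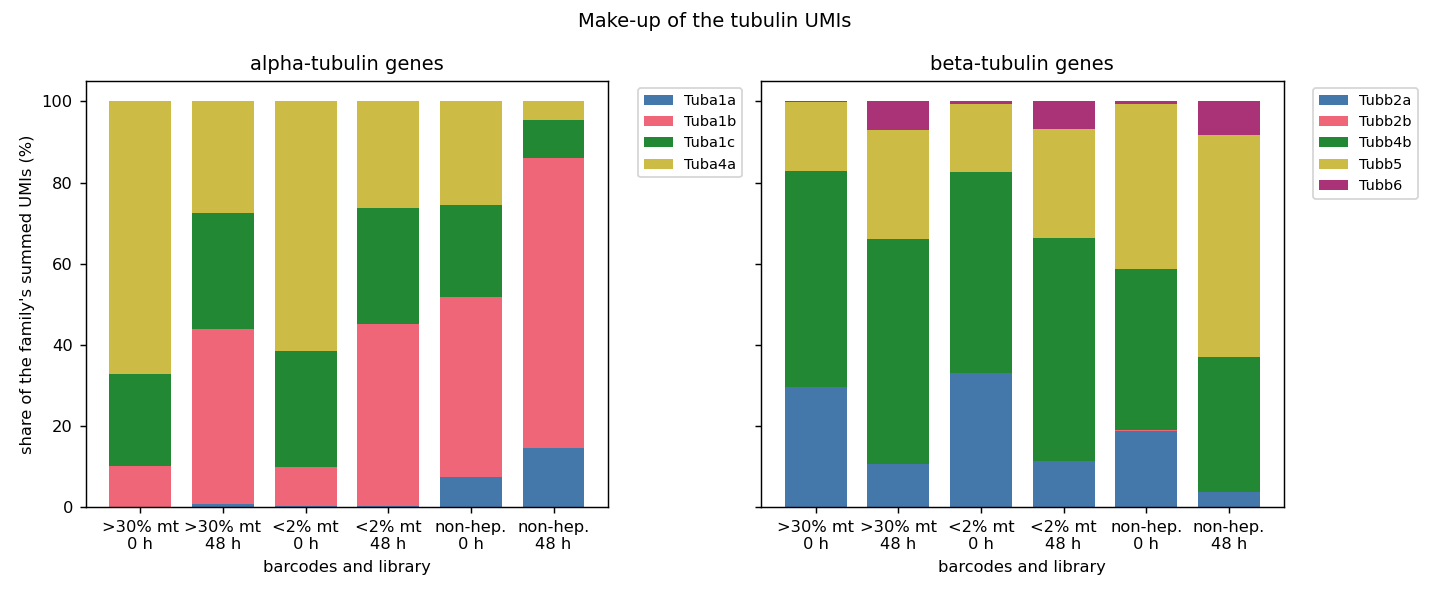
Share of each gene in the α-tubulin UMIs and in the β-tubulin UMIs (percent, stacked bars from 0 to 100) in the 3 sets of both libraries. Tuba4a fills 67.2% of the α-tubulin bar of undamaged barcodes above 30% and 27.4% of the PHx48h bar, and Tubb4b fills 53.2% and 55.3% of the β-tubulin bars.

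Within 1 library the sets can be compared without a difference in preparation. In the undamaged library the summed level above 30% was 0.616 times (0.589 to 0.644) that below 2%, where the median gene stood at 0.992. At PHx48h it was 0.823 times (0.796 to 0.851), where the median gene stood at 1.53. Stmn1 stood at 0.357 times (0.183 to 0.629) in the undamaged library and 0.584 times (0.539 to 0.633) at PHx48h, and Tuba4a at 0.698 times (0.650 to 0.748) and 0.909 times (0.813 to 1.02). By mitochondrial share, the summed level of undamaged barcodes was 357 CPM from 30% to 45%, 340.4 from 45% to 60% and 420 (312 to 554) above 60%. At PHx48h it was 1970 (1899 to 2043), 1436 (1388 to 1484) and 1581 CPM (1510 to 1653), highest in the bin nearest the limit. Each PHx48h bin lay above each undamaged bin.

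At PHx48h the barcodes were also split by UMIs of Mki67 or Top2a, which are expressed in dividing cells. Each barcode was first thinned to 2000 non-mitochondrial UMIs, so that deeper barcodes were not more likely to show either gene. Above 30%, 124 of 682 barcodes deep enough (18.2%, exact binomial interval 15.4 to 21.3) had such a UMI and 558 did not, while 83 were too shallow. The summed members stood at 2599 CPM with and 1345 CPM without, a ratio of 1.93 (1.76 to 2.12). At this depth a barcode without such a UMI can still come from a dividing cell, so the split does not divide dividing from resting cells. A sum of 10 other division genes stood at 309 CPM without, against 8.31 CPM in all undamaged barcodes above 30%. By the number of UMIs of the 2 genes the sum stood at 1345 CPM with 0, 2466 (2234 to 2715) with 1 and 2878 (2518 to 3275) with 2 or more, the last 2 intervals overlapping. Tubb5 had a ratio of 2.78 (2.16 to 3.57), Tubb6 of 2.47 (1.501 to 3.995) and Tubb4b of 2.155 (1.80 to 2.57), so 3 members were at least 2-fold higher against 5.72% of all genes past a filter of 20 CPM. Tuba1c (1.85, 1.37 to 2.48), Stmn1 (1.78, 1.38 to 2.29) and Tuba1b (1.77, 1.38 to 2.25) were also higher. The intervals of Tuba4a (1.26, 0.890 to 1.76) and Tubb2a (1.09, 0.641 to 1.77) held 1, as did that of the summed actin genes (1.02, 0.934 to 1.12).

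The split separated the barcodes below 2% less. Of 507 barcodes 62 had a UMI of Mki67 or Top2a, and the summed members stood at 2235 CPM with and 1875 CPM without, a ratio of 1.19 (1.05 to 1.35). By the number of UMIs it stood at 1875 CPM with 0, 2265 (1992 to 2564) with 1 and 2002 (1331 to 2894) with 2 or more, the last in 7 barcodes, so it did not follow that number here. No member was at least 2-fold higher, against 8.72% of all genes, and of the members with a ratio only Tuba1c (1.62, 1.10 to 2.33) had an interval that did not hold 1. The summed 10 division genes, among them Ccna2 and Cdk1, also differed less here (1.34, 1.08 to 1.64) than above 30% (2.72, 2.28 to 3.23), although their level without an Mki67 or Top2a UMI was higher (682 against 309 CPM). The summed actin genes had a ratio of 1.02 (0.915 to 1.13) below 2%. In non-hepatocyte barcodes the sum of the members was 4144 CPM in the 50 barcodes with and 2570 CPM in the 64 without, a ratio of 1.61 (1.39 to 1.87). The actin ratio in this set was 0.888 (0.831 to 0.95), and whether its barcodes with and without differed in cell types was not tested. Tubb5 (1.93, 1.43 to 2.62), Tubb4b (1.615, 1.08 to 2.43), Stmn1 (1.48, 1.03 to 2.13) and Tuba1b (1.47, 1.09 to 1.97) were higher there, and Tuba1c (2.17, 1.05 to 4.69) and Tubb6 (2.28, 0.948 to 5.85) were the 2 members at least 2-fold higher, against 15.2% of all genes. The ratio of the sum over 4 random thinnings was 1.73 to 1.93 above 30%, 1.07 to 1.19 below 2% and 1.53 to 1.78 in non-hepatocyte barcodes, so the values given for the hepatocyte sets are the highest of the 4. Barcodes also varied more than counting error: at this depth the variance of the summed UMIs was 2.57 times its mean above 30%, 1.71 times below 2% and 2.56 times in non-hepatocyte barcodes, so the intervals of the split are too narrow by an amount that was not tested.

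**Figure D4:**
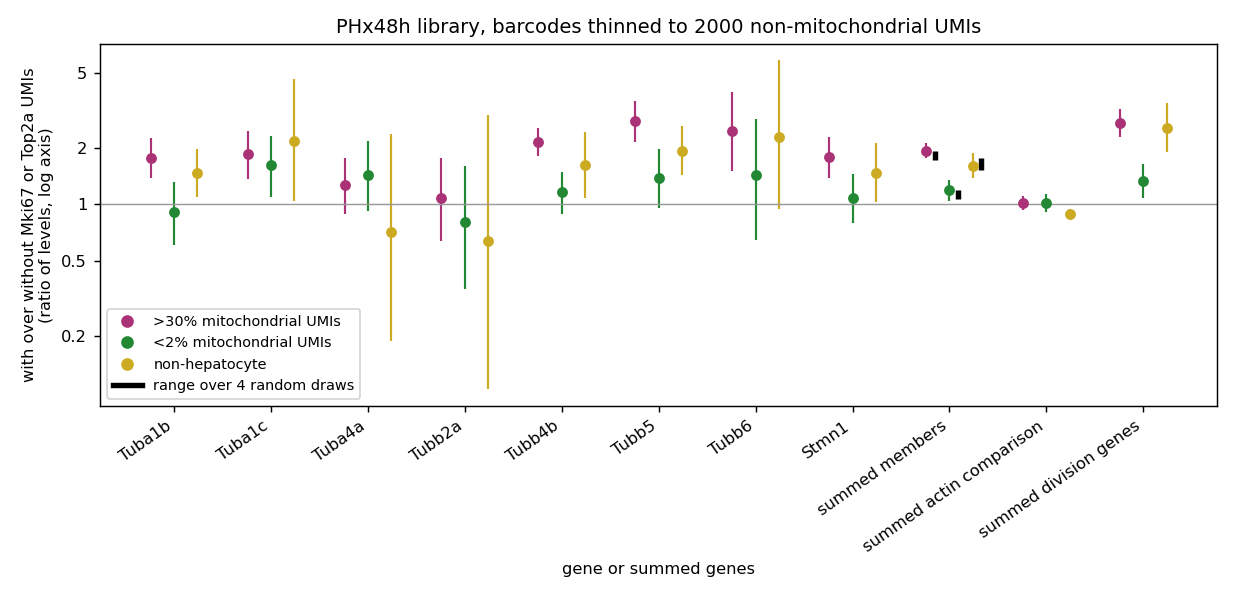
Ratio of the level in PHx48h barcodes with to those without Mki67 or Top2a UMIs (log axis) of each gene, the summed members, the summed actin genes and the summed division genes, after thinning to 2000 non-mitochondrial UMIs; lines are exact 95% intervals for counting error, black bars the range over 4 random draws, and Tuba1a and Tubb2b are left out. Tubb5, Tubb6 and Tubb4b lie above 2 in barcodes above 30% mitochondrial UMIs, and the actin sum lies at 1.02.

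Other genes of the pathway were read from lists chosen by function, with ratios of PHx48h over undamaged above 30%. Of the genes that fold tubulin, 16 of 18 past the filter were at least 2-fold higher, where 30.9% of all genes were, with a median of 2.81 against 1.47 over all genes. Below 2% there were 12 of 19, against 24.2% of all genes, and in non-hepatocyte barcodes 8 of 19, against 21.8%. The highest were Cct5 (6.24), a chaperonin subunit, and Pfdn1 (5.99), a prefoldin subunit, and the lowest were Tbce (1.31), a tubulin cofactor, and Cct8 (1.43). Of the genes whose products bind the spindle, 6 of 7 were at least 2-fold higher, as were 5 of 6 below 2% and 7 of 8 in non-hepatocyte barcodes. Tpx2, which helps microtubules form near chromosomes, had 0 UMIs in the undamaged library and 104 at PHx48h, at least 39.3-fold higher, and Prc1, which bundles the central spindle, had 1 and 125 UMIs. Numa1 (1.23) was the lowest of that list, followed by Tacc3 (17.9).

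Of the genes for nucleation from γ-tubulin complexes, 5 of 8 were at least 2-fold higher (4 of 5 below 2% and 5 of 8 in non-hepatocyte barcodes), led by Tubgcp5 (3.10) and Tubgcp2 (2.83), with Mzt1 at 1.55 and Tubgcp3 at 0.728. Of the genes that bind plus ends or the lattice, 4 of 10 were, led by Mapre2 (5.66) and Ckap5 (4.53), with Clasp1 at 1.24 and Map7 at 0.9958. Below 2% there were 2 of 9 higher and 1 lower, with a summed ratio of 1.05 (0.951 to 1.15), and in non-hepatocyte barcodes 4 of 14 higher and 1 lower, so this list lay near the share of all genes (30.9%, 24.2% and 21.8%). Of the genes that depolymerise or sever microtubules, 2 of 4 were (1 of 4 below 2% and 3 of 7 in non-hepatocyte barcodes). Fignl1 (0 against 46 UMIs) and Kif18b, a mitotic kinesin (0 against 21 UMIs), were at least 17.4-fold and 7.93-fold higher, while the severing enzymes Katna1 and Spast stood at 1.33 and 1.44. Of the genes that modify tubulin or its messages, 3 of 7 were at least 2-fold higher and 1 was lower, near the 30.9% of all genes. Below 2% 0 of 7 passed 2-fold in either direction, and in non-hepatocyte barcodes 0 were higher and 1 was lower. Agtpbp1, which removes glutamates from tubulin tails, led with 4.15, followed by Svbp (3.02), the partner of the enzymes that remove the terminal tyrosine. Atat1, the α-tubulin acetyltransferase, was 0.289 times its undamaged level, and Agbl5 stood at 1.07. Of the remaining tubulin genes, Tuba8 (3.40), Tubd1 (2.45) and Tubg1 (2.31) had enough UMIs to be named.

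The actin genes give a comparison with another filament system. Their summed level was 1.88-fold higher (1.83 to 1.94) above 30%, 2.03-fold (1.99 to 2.07) below 2% and 1.69-fold (1.65 to 1.73) in non-hepatocyte barcodes, in each case below the ratio of the summed members. Single genes spread widely: above 30%, 10 of 11 were at least 2-fold higher, against 30.9% of all genes, from Tmsb10 (16.7) and Arpc1b (7.40) down to Tmsb4x (2.14) and Actb (1.36). Below 2% there were 8 of 11, against 24.2%, and in non-hepatocyte barcodes 8 of 12, against 21.8%. The median ratio of the actin genes was 2.97, 3.93 and 2.33 in the 3 sets. For the members with a ratio it was 9.67, 4.46 and 4.605, so by this measure the 2 groups lay close below 2%. All 10 division genes were at least 2-fold higher in the 3 sets. Above 30%, Ccna2 had 0 and 139 UMIs, Ube2c 3 and 400 UMIs, and Birc5 and Cdca8 had ratios of 33.1 and 29.9.

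Over the 8 combinations of 2 libraries and 4 sets, which include barcodes from 2% to 30% mitochondrial UMIs and share libraries, the genes whose log2(level + 5) followed the summed members most closely among 4918 genes were Smc4 (Pearson r of 0.994), Rpp25l (0.994), Ebna1bp2 (0.993), Smc2 (0.990) and Mdp1 (0.989). Among the members themselves, which are part of the sum, r was 0.981 for Tubb5, 0.977 for Stmn1, 0.966 for Tuba1b and 0.963 for Tubb4b, against 0.462 for Tubb2a and -0.640 for Tuba4a. These correlations describe 8 points and carry no test.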

How the data were processed

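Single cells were captured with 10x Genomics 3′ v2 chemistry. The authors deposited raw UMI counts per gene and barcode made with Cell Ranger, whose version is not given in the sources used here, on mm10 per the submitters' processing notes. The study excluded barcodes of high mitochondrial content and doublets, but no table of the barcodes it kept was used here, and all deposited barcodes were analysed, with medians of 1436 (undamaged) and 6838.5 UMIs per barcode (PHx48h). The 10 genes, the gene lists, the cell type markers and the tests were chosen with earlier results of these data known.

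Counts were read with Python 3.11.15, NumPy 2.4.6 and SciPy 1.17.1. Barcodes at or below 30% mitochondrial UMIs (13 genes) were clustered per library with Scanpy 1.11.5 (2000 variable genes without the members and microtubule lists, 30 components, 15 neighbours, Leiden resolution 1.0). Clusters with at least 3 markers of a class other than hepatocyte, each detected in at least 20% of barcodes and 3-fold above the rest, formed the non-hepatocyte set, and mixed or unnamed ones were divided once at resolution 0.5. This rule was set after the clusters were seen. The set below 2% leaves out these barcodes, and the set above 30% was not screened by cluster. Names ending in -like come from the markers: 396 and 23 barcodes were macrophage-like and 134 and 35 endothelial-like, and 195 and 56 stayed unnamed (undamaged and PHx48h). Scrublet called 1 of 55332 undamaged barcodes, too few to have worked, and 9 of 821 at PHx48h, so doublets were kept.

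UMIs were summed per library and set. With 1 library per group no test was possible and no p-value is given. A gene was called at 2-fold, genes with a mean level of at least 5 CPM forming the background, and a level of 0 was set at 3 UMIs. List genes were named as the 2 highest and 2 lowest ratios above 30% with at least 20 UMIs. On counts simulated with Poisson error only, the intervals held the true fold for 95.7%, 95.6% and 96.4% of 8333, 7271 and 10332 unchanged genes in the 3 sets. For genes changed by known folds, 50 per fold, the shares lay between 90.0% and 100.0%. Such counts check the calculation and cannot show the spread between barcodes or mice. Gene positions and coding sequences came from GENCODE M21 and promoters from RefSeq, some sequences are not reported here, and edgeR 4.0.16 gave TMM factors for an alternative scaling. Other alternatives changed the mitochondrial limits, the clustering, the thinning and the split genes.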

Additional observations from a re-analysis of the deposited data

Results flagged for a closer look

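Tuba4a and Tubb2a were the 2 members whose ratios of PHx48h over undamaged lay on opposite sides of 1 in different sets. The Tuba4a ratio was 1.081 (0.979 to 1.19) above 30% mitochondrial UMIs, 0.8292 (0.759 to 0.905) below 2% and 0.5004 (0.354 to 0.694) in non-hepatocyte barcodes. The Tubb2a ratio was 2.215 (1.89 to 2.61), 1.378 (1.23 to 1.54) and 0.8285 (0.573 to 1.18). With 1 library per group the difference between the sets was not tested. Above 30% the interval of Tuba4a holds 1, and its direction changed with the scaling or the limit, to 0.903 as CPM of all UMIs, 0.921 without the 20 most abundant genes, 0.733 with TMM factors and 0.98 at a limit of 50%. With undamaged barcodes of at least 4578 UMIs the Tuba4a ratios were 1.37, 0.753 and 0.924 in the 3 sets, and the Tubb2a ratios 3.31, 1.365 and 0.903.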

How the results depend on the processing

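The summed members stayed higher at PHx48h in the 3 sets under each alternative run, but the size of the ratio depended on the scaling. Above 30% mitochondrial UMIs the ratio of 4.63 became 3.87 as CPM of all UMIs, 3.95 without the 20 most abundant genes, 3.14 with TMM factors, 4.25 at a limit of 20% and 4.401 as a mean over barcodes. Below 2% the ratio of 3.46 became 2.998 without the 20 most abundant genes, 2.85 with TMM factors and 3.18 without clusters led by markers of another class. In non-hepatocyte barcodes the ratio of 4.05 became 3.50 without the 20 most abundant genes, 3.26 with TMM factors, 4.33 at resolution 0.5 and 3.15 in macrophage-like barcodes alone. The ratio with over without Mki67 or Top2a UMIs above 30% became 1.695 when thinned to 1000, 1.47 when split by Cdk1 or Birc5 and 1.73 in another random draw. Below 2% it became 1.04 with at least 2 UMIs and 1.36 by Cdk1 or Birc5, and in non-hepatocyte barcodes 1.23 by Cdk1 or Birc5. With undamaged barcodes at least as deep as the PHx48h minimum, the ratios were 6.05 above 30%, 2.56 below 2% (16 undamaged barcodes) and 2.99 in non-hepatocyte barcodes. Counts of members at least 2-fold higher, or 1.5-fold in the alternative that changed this limit, stayed between 7 and 8 above 30%. They stayed between 5 and 7 below 2% and at 6 in non-hepatocyte barcodes. No share of all genes is given for these alternatives. Of 153 alternative ratios of single members, 39 moved beyond their counting interval and 5 changed side of 1, of which 4 were Tuba4a above 30% and 1 was Tuba1c in non-hepatocyte barcodes. The removal of shared barcodes, the further draws, the class-alone values, the depth match and the removal of clusters led by other markers were chosen after seeing the data. No paired analysis was possible because each group had 1 library. No ratio is given for members with 3 UMIs or fewer in both libraries.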
